A study of Mus musculus with 8 samples.

Results

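The genes described here encode the proteins of the cytosolic ribosome. They were taken by symbol: every row of the count table named Rpl or Rps followed by a number and at most an a, x or y, together with Rplp0, Rplp1, Rplp2 and Rpsa. This gave 77 of 26667 genes, 46 of the large subunit and 31 of the small subunit. The match by symbol used no measured value, but the family was chosen with earlier results of these data known. The RNA came from undifferentiated pleomorphic sarcomas (UPS), which arise in soft tissue, of 8 mice, sequenced as 1 library per tumour. KP mice (n = 4, labelled replicates 5 to 8) carried Trp53 fl/fl among their engineered alleles, and KPH2 mice (n = 4, replicates 1 to 4) carried the same alleles plus Epas1 fl/fl, so that the loss of Trp53 is common to both groups. Epas1 encodes HIF-2α, and the labels give the genotypes as Wild type and Epas1 -/- on a mixed 129/C57BL/6 strain. Tumours were started in mice aged 8 weeks or older, of both sexes, by injecting adenovirus with Cre into the right hind-limb muscle, and were taken 7 weeks later or at the largest size allowed. Recombination was limited to infected cells of the muscle, whereas the sequenced sections held whole tumours with host cells.

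Each ribosome joins a large subunit, which forms peptide bonds, to a small subunit, which reads the mRNA, and each subunit holds 1 copy of nearly all of its proteins. The mRNAs of these proteins begin with a C followed by a run of pyrimidines, the 5′ terminal oligopyrimidine (TOP) tract, through which mTORC1 signalling sets how much of each mRNA is translated. The study sequenced these tumours to look, without a chosen pathway, for how HIF-2α restrains sarcoma growth, and examined mTORC1 activity in them. The counts measure the abundance of these mRNAs and not their translation.

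The short motif CTTTC, typical of TOP tracts, was common at the starts of these genes. Within 50 bases on either side of the RefSeq start (GRCm38), 31 of the 57 genes with an entry held it on the transcribed strand, which is 54.4%, against 14.6% of all 27025 genes. On the opposite strand it was found in 10.5% of these genes and 13.8% of all genes. It was present in 23 of 34 large subunit genes (67.6%) and in 8 of 23 small subunit genes (34.8%). The windows below run from 15 bases before the start to 15 after it, with the motif in capitals, and were chosen to show starts with 1 and 2 matches beside those of Rps3a, Rps6 and Rpl11, on which results below turn and whose windows hold none.
Rpl15, chr14:18270972-18271001, minus strand: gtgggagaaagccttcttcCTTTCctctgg
Rplp2, chr7:141447636-141447665, plus strand: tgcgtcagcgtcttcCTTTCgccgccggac
Rpl35, chr2:39005117-39005146, minus strand: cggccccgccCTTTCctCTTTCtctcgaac
Rps27, chr3:90213634-90213663, minus strand: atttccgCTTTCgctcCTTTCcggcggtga
Rps3a, chr3:86142654-86142683, minus strand: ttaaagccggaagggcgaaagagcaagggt
Rps6, chr4:86857353-86857382, minus strand: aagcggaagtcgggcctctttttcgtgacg
Rpl11, chr4:136053379-136053408, minus strand: ctgacccataaggccacggggccggaagtc
A match describes these letters only. Several pyrimidine-rich starts, such as that of Rps6 with ctctttttc, have no CTTTC within 15 bases.

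The libraries held between 6463221 and 13155510 counts. The study left out 1 knockout library as a technical outlier, and KPH2 1 is the KPH2 library absent from the deposited table of 7 libraries, so KPH2 1 is shown apart here. Tests compared KPH2 2 to 4 with KP 5 to 8 unless all 8 tumours are named. Epas1 lay at 59.1, 83.0, 86.7 and 83.9 CPM (counts scaled by TMM library size) in KP 5 to 8, 32.6 in KPH2 1 and 53.3, 37.7 and 42.4 in KPH2 2 to 4. All KPH2 tumours were below all KP tumours, with a log2 fold change of -0.81 ± 0.19 (SE) that did not pass the test (edgeR quasi-likelihood test, adjusted p = 0.0742). All 30 skeletal muscle markers had a log2 fold change above 0 and 3 were called higher, where 48.0% of all genes tested were above 0 and 1.24% were called higher. The summed level of the muscle markers was 1881 to 3393 CPM in KP, 1534 in KPH2 1 and 4363 to 19755 in KPH2 2 to 4. The leukocyte, endothelial and mesenchymal marker lists had medians of -0.57, -0.56 and -0.61. Among the 29 markers tested in these 3 lists, 1 mesenchymal gene was called lower, as were 0.72% of all genes. The share of counts in Rn45s, the ribosomal RNA precursor, and Lars2 together was 1.69% to 3.83% in KP, 9.58% in KPH2 1 and 4.77% to 14.5% in KPH2 2 to 4. The part of these differences in the results below was not tested, beyond a fit with the muscle markers as a covariate and one without Rn45s and Lars2. In whole tumours, fewer cells of a type and less RNA per cell cannot be told apart.

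Ribosomal protein genes took a similar share of the RNA in both genotypes, apart from KPH2 1. They received 2.25%, 2.01%, 1.86% and 2.45% of all gene counts in KP 5 to 8, 3.17% in KPH2 1 and 2.35%, 1.90% and 2.12% in KPH2 2 to 4. The 4 KP tumours averaged 2.14% ± 0.263 (SD, n = 4), and the tumours KPH2 2 to 4 averaged 2.12% ± 0.226 (SD, n = 3). The values of those 7 tumours overlapped, and KPH2 1 stood above them all. Counting error was far smaller than these gaps, since the widest 95% Wilson interval was 0.0108 percentage points to each side (counting error only). With KPH2 1 included, the KPH2 mean was 2.39% ± 0.553 (SD, n = 4), which rested on that tumour. With Rn45s and Lars2 left out of the total, an alternative chosen after seeing the data, the share was 2.20% ± 0.270 in KP (SD, n = 4) and 2.34% ± 0.372 in KPH2 2 to 4 (SD, n = 3), so that the difference turned from -0.018 to 0.134 percentage points, within the spread between tumours in both cases.

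**Figure D1:**
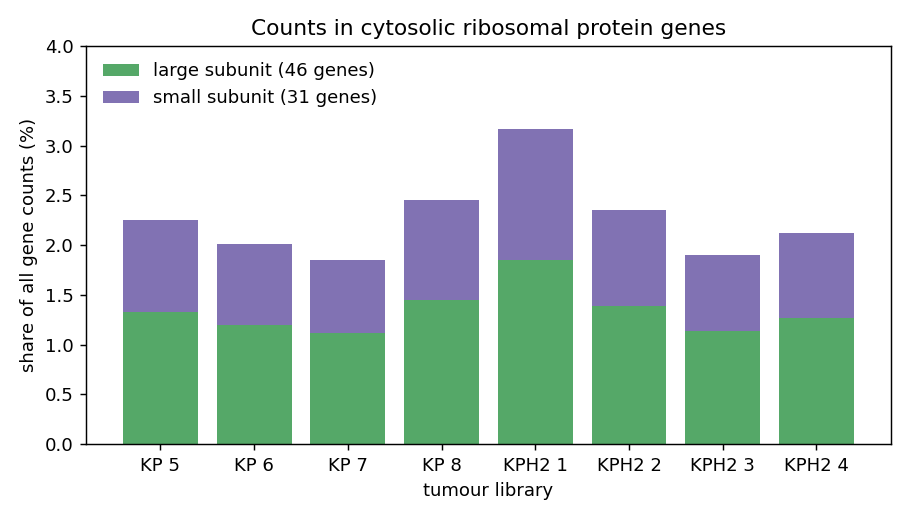
Share of all gene counts (%) in the 46 large subunit genes (green) and 31 small subunit genes (purple), 1 bar per tumour. KPH2 1 is highest at 3.17%, and the other 7 tumours lie between 1.86% and 2.45%, with KP and KPH2 mixed.

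The subunits kept nearly the same proportion in every tumour. Large subunit genes held 1.43 to 1.51 times the counts of small subunit genes in KP, 1.41 times in KPH2 1 and 1.43 to 1.48 times in KPH2 2 to 4. On the log2 CPM scale, the median of the large subunit genes minus that of the small was -0.05 in KP (SD 0.07, n = 4), -0.02 in KPH2 2 to 4 (SD 0.09, n = 3) and -0.21 in KPH2 1. The median log2 fold change was 0.09 for the 45 large subunit genes tested and 0.05 for the 31 small subunit genes.

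Among single genes, 1 passed the test. Of the 76 genes that passed the filter on low counts, 1 was called higher in KPH2 and 0 lower at an adjusted p under 0.05. Among all 14867 genes tested, 1.96% were called, 1.24% higher and 0.72% lower. The same 1 gene, Rps3a, was the only one with an unadjusted p under 0.05, which 17.8% of all genes had, 8.5% in the higher direction. DESeq2, which called 7.2% of the 16315 genes it tested in these tumours, also called Rps3a and no other member. The median log2 fold change was 0.07, beside -0.02 for all genes, and 57 of 76 were above 0, beside 48.0% of all genes. The log2 fold changes of the 75 genes not called ran from -0.28 to 0.47. For 72 of these 75, the 95% interval excluded a change of 1 log2 unit in either direction, and the intervals of the other 3 (Rpl36, Rps13 and Rps2) reached past 1. The median turned to -0.04 without KPH2 2 and to -0.07 with the muscle markers as a covariate.

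**Figure D2:**
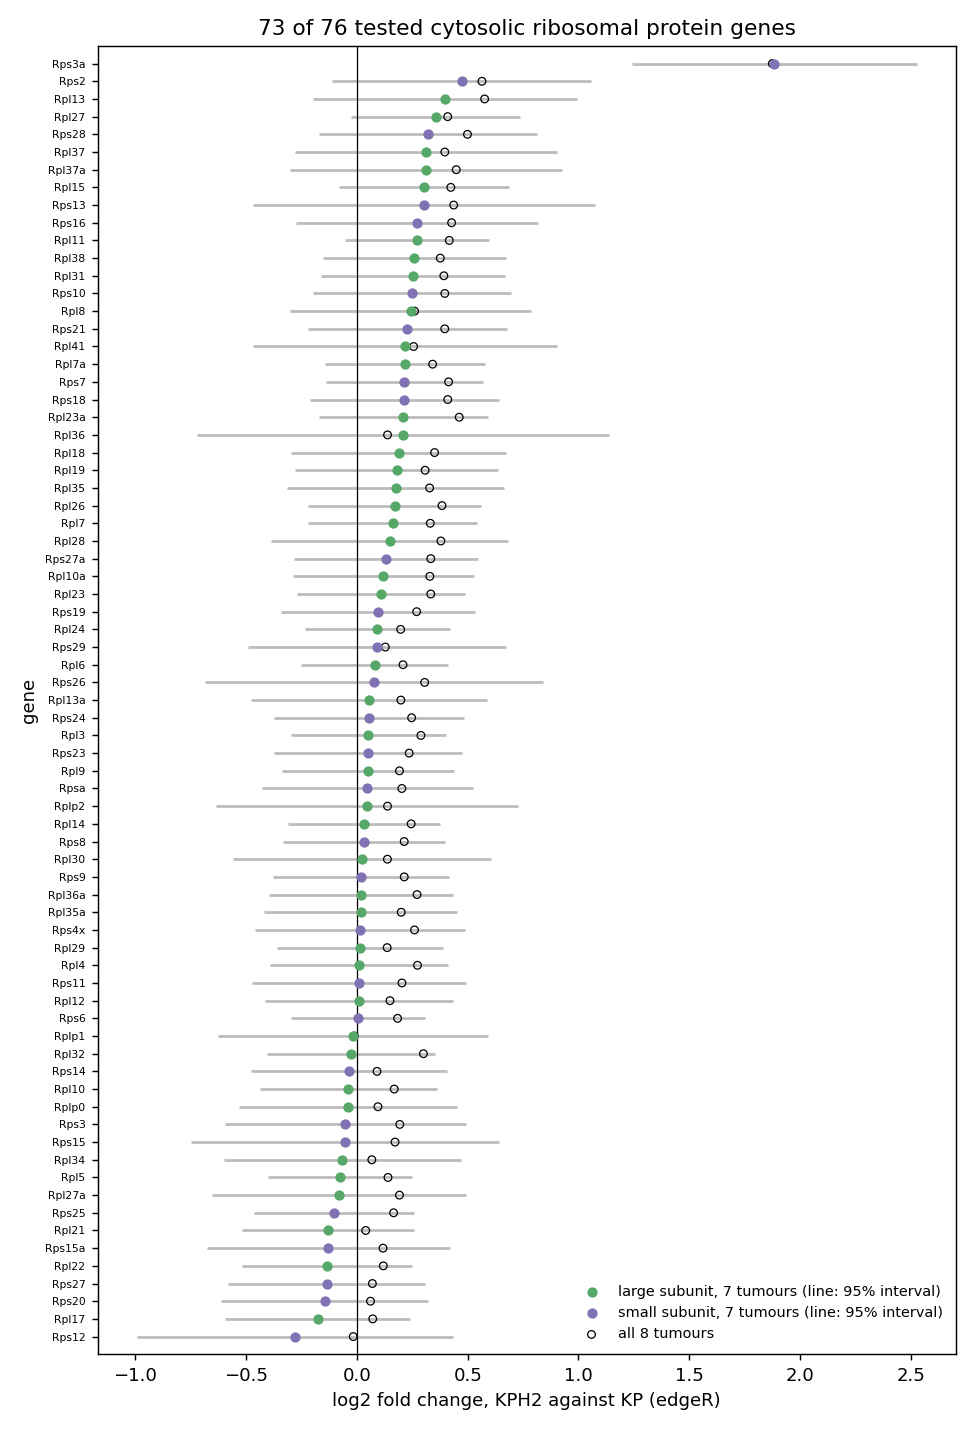
Log2 fold change, KPH2 against KP, of 73 of the 76 tested genes in order of size; filled points and 95% intervals are from the 7 tumours, and open circles from all 8. Rps3a stands alone at 1.88, the others lie between -0.28 and 0.47, and including KPH2 1 moves most genes to the right.

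Rps3a, a small subunit protein that sits near the mRNA exit on the ribosome (current symbol Rps3a1, Entrez 20091, GRCm38 chr3:86137940-86142668, minus strand), was that gene. It was measured at 64.9, 88.3, 73.7 and 107 CPM in KP 5 to 8, 299.8 in KPH2 1 and 410.4, 187 and 329 in KPH2 2 to 4. Every KPH2 tumour, KPH2 1 included, was above every KP tumour. The KP tumours averaged 83.5 ± 18.4 CPM (SD, n = 4) and KPH2 2 to 4 averaged 309 ± 113 CPM (SD, n = 3), a 3.69-fold difference with a log2 fold change of 1.88 ± 0.28 (SE, edgeR quasi-likelihood test, adjusted p = 0.0231). With KPH2 1 in the fit its log2 fold change was again 1.88, with an adjusted p of 0.0757 in a fit where 0.00675% of all genes were called. The call was also lost without KP 6 (adjusted p = 0.0586), KP 7 (0.0651), KPH2 2 (0.0718) or KPH2 4 (0.0549), and with the muscle markers as a covariate (log2 fold change 2.10, adjusted p = 0.352), and the direction held in each. Over the 19 alternative fits, the log2 fold change of Rps3a ran from 1.21 to 2.15.

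The same counts placed Rps3a differently among its own subunit in the 2 genotypes. Its level was 0.242, 0.398, 0.350 and 0.387 times the median CPM of the other 30 small subunit genes in KP 5 to 8. The ratio was 0.718 in KPH2 1 and 1.34, 0.810 and 1.45 in KPH2 2 to 4. It ranked between 28th and 31st of 31 by CPM in the KP tumours and between 9th and 24th in the KPH2 tumours. These CPM values were not scaled by transcript length, and which genotype departed from a usual level was not tested.

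The reads of Rps3a cannot all be tied to this gene. Of the 100-base windows of its transcript, the length of the reads, 45.3% also occur in transcripts of other genes, 42.1% in Rps3a2. Over their whole length, Rps3a2 (792 bases) differs from Rps3a at 4 bases and Rps3a3 (795 bases) at 9, and the count table has no row for either. The stretch at bases 742 to 801 of the Rps3a transcript is shown because all 3 genes can be told apart there, with the bases that differ in capitals.
Rps3a: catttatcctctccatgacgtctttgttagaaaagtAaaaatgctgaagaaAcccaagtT
Rps3a2: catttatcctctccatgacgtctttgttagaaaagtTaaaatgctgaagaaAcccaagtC
Rps3a3: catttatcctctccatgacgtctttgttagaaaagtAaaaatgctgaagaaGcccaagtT
Only uniquely aligned reads were counted, so a read within a shared stretch may have been dropped or placed on one copy, and the part of the copies in the difference was not tested.

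**Figure D3:**
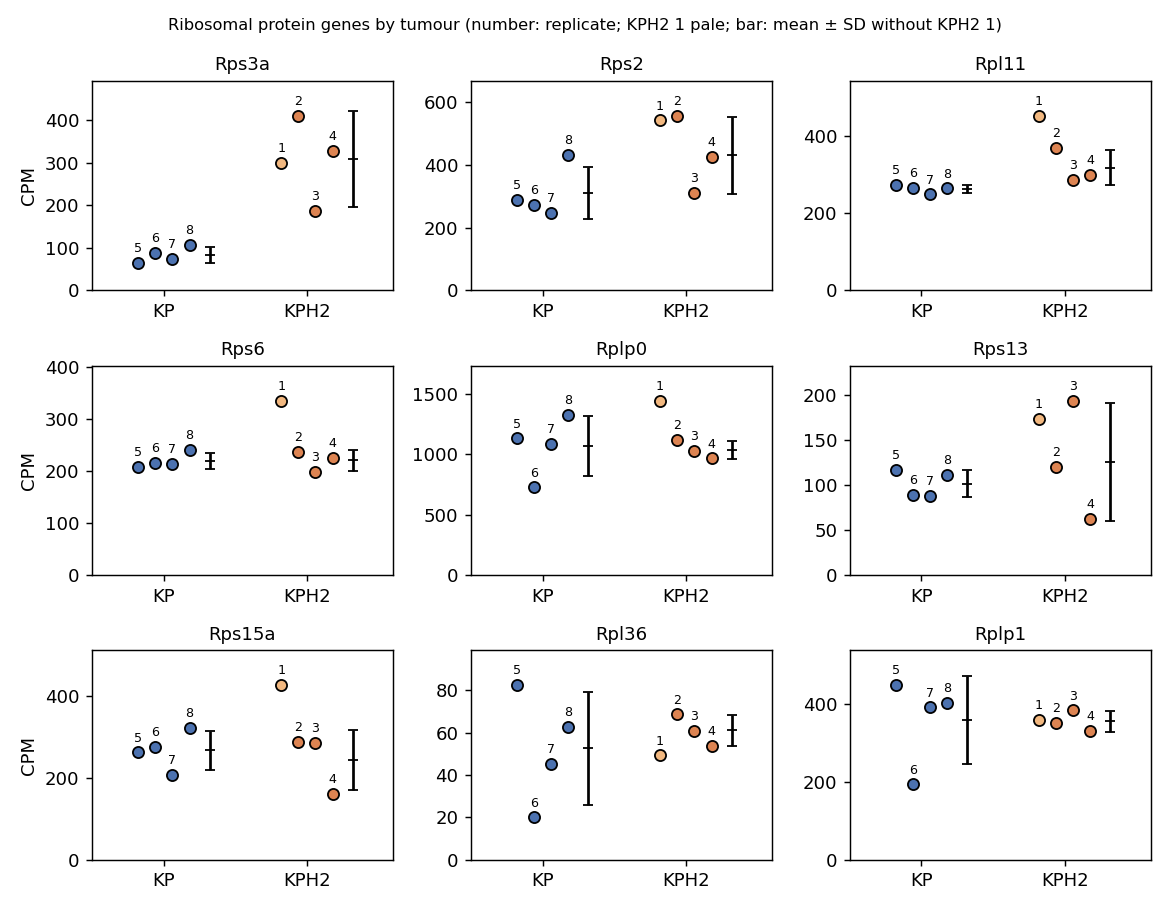
CPM of Rps3a, Rps2, Rpl11, Rps6, Rplp0, Rps13, Rps15a, Rpl36 and Rplp1 in each tumour (numbers: replicate; blue: KP; orange: KPH2, with KPH2 1 pale), with the mean ± SD of KP 5 to 8 and of KPH2 2 to 4. The groups do not overlap for Rps3a and Rpl11; KPH2 1 is highest for Rps6, Rplp0, Rpl11 and Rps15a, and KP 6 is lowest for Rpl36 and Rplp1.

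Rps6 and Rplp0, taken as markers of the ribosome, were close in level between genotypes outside KPH2 1. Rps6, the small subunit protein phosphorylated by S6 kinase downstream of mTORC1 (chr4:86854099-86857367), was at 207, 215, 214 and 239.9 CPM in KP 5 to 8, 335 in KPH2 1 and 237, 198 and 224 in KPH2 2 to 4. The groups overlapped, and the log2 fold change was 0.01 with a 95% interval of -0.30 to 0.31. Rplp0, the base of the acidic stalk that recruits elongation factors (chr5:115559467-115563729), was at 1130, 725, 1083 and 1325 CPM in KP 5 to 8, 1444 in KPH2 1 and 1117, 1027 and 966 in KPH2 2 to 4. The KP tumours spread on both sides of KPH2 2 to 4, and the log2 fold change was -0.04 (95% interval -0.53 to 0.45).

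The partners of Rplp0 in the stalk overlapped between genotypes. Rplp1 was at 448, 194, 391 and 403 CPM in KP 5 to 8, 359 in KPH2 1 and 351, 384 and 331 in KPH2 2 to 4. Rplp2 was at 220.3, 103, 154 and 194 CPM in KP 5 to 8, 219 in KPH2 1 and 227, 174 and 119 in KPH2 2 to 4. KP 6 was the lowest of all 8 tumours for both, far below the others for Rplp1 but close to KPH2 4 for Rplp2, and their log2 fold changes were -0.02 and 0.05 (edgeR adjusted p = 0.983 and 0.959). Rpl36, another large subunit protein, was also lowest in KP 6, at 19.9 CPM against 45.1 to 82.3 in the other 7 tumours, and was singled out after its values were seen.

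Rpl5 and Rpl11 bind 5S ribosomal RNA and, when free of ribosomes, inhibit Mdm2. Rpl11 was at 275, 267, 249 and 265 CPM in KP 5 to 8, 453 in KPH2 1 and 371, 286 and 299.8 in KPH2 2 to 4. All KPH2 tumours were above all KP tumours, by a log2 fold change of 0.27 ± 0.14 (SE) that did not pass the test (edgeR adjusted p = 0.366). Rpl11 and Rps3a were the 2 of 76 genes with such a separation upward, which 8.73% of all genes showed, and 0 of 76 were separated downward, which 8.15% of all genes showed. With KPH2 1 counted, the numbers were again 2 and 0, beside 3.76% and 4.4% of all genes. Rpl5 overlapped between groups, from 271 to 311 CPM in KP and from 253 to 316 in KPH2 2 to 4, with a log2 fold change of -0.08 (adjusted p = 0.836).

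The remaining genes of lowest p on either side all overlapped between groups over the 7 tumours. Rps2, a small subunit protein at the mRNA entry, was at 289, 273, 247 and 433 CPM in KP 5 to 8, 543 in KPH2 1 and 557, 311 and 426 in KPH2 2 to 4, a log2 fold change of 0.47 ± 0.26 (SE, edgeR adjusted p = 0.386). Rpl27 and Rpl15, of the large subunit, had log2 fold changes of 0.36 and 0.30 (adjusted p = 0.312 and 0.394). In the other direction, Rpl17, Rps12, Rpl22 and Rpl21 had log2 fold changes between -0.28 and -0.13 (adjusted p from 0.670 to 0.750). Rps12 spread widely, from 401 to 679 CPM in KP and from 311 to 681 in KPH2 2 to 4. Rpsa, the laminin receptor precursor of the small subunit, was at 540 to 941 CPM in KP and 742 to 826 in KPH2 2 to 4, with a log2 fold change of 0.05 (adjusted p = 0.937).

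KPH2 1 stood apart from the other tumours across the whole family. It was the highest of all 8 for 63 of the 77 genes, whereas 17.5% of all genes tested were highest there. KPH2 2 was the highest for 8 more. Of the related lists described below, KPH2 1 was also the highest for other mRNAs with TOP tracts (mean log2 CPM 8.89, others 8.15 to 8.71). The same held for chaperones of ribosomal proteins (5.20, others 4.68 to 5.02) and regulators of TOP mRNAs (6.43, others 6.02 to 6.31). For mitochondrial ribosomal protein genes, KPH2 2 was the highest (4.395, beside 4.392 in KPH2 1). The median log2 CPM of the family was 7.68 to 8.09 in KP, 8.64 in KPH2 1 and 7.83 to 8.30 in KPH2 2 to 4. With KPH2 1 in the fit, the median log2 fold change rose from 0.07 to 0.26, and 74 of 76 genes were above 0, beside 50.9% of all genes. No member was called over 8 tumours (edgeR, 0 of 76), in a fit that called 0.00675% of all genes. At an unadjusted p under 0.05, 6 of 76 were higher, among them Rpl11, Rpl15, Rpl27, Rps2 and Rps3a, where 6.65% of all genes were. Among genes outside the symbol rule that encode ribosomal proteins, Fau and Gnb2l1 (Rack1) had log2 fold changes of 0.19 and 0.18 over 7 tumours, and neither was called.

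Relative to the family as a whole, most genes kept their place from tumour to tumour. After the median of the family in each tumour and each gene's own median were subtracted on the log2 CPM scale, the standard deviation of a gene over the 8 tumours had a median of 0.18. It was widest for Rps3a (0.91), Rpl36 (0.60), Rps13 (0.46) and Rplp1 (0.43). Rps13 was at 117, 89.3, 87.5 and 111 CPM in KP 5 to 8, 173 in KPH2 1 and 119.6, 194 and 62.3 in KPH2 2 to 4. KPH2 3 and KPH2 4 were thus at opposite ends within a genotype. These deviations followed the GC content of the transcripts in some tumours, with Spearman's rho over 76 genes of -0.43 in KP 6 and -0.36 in KPH2 1 and from -0.0042 to 0.22 in KP 5, 7 and 8 and KPH2 2 to 4. These correlations are across genes, which share a library, and are a description.

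**Figure D4:**
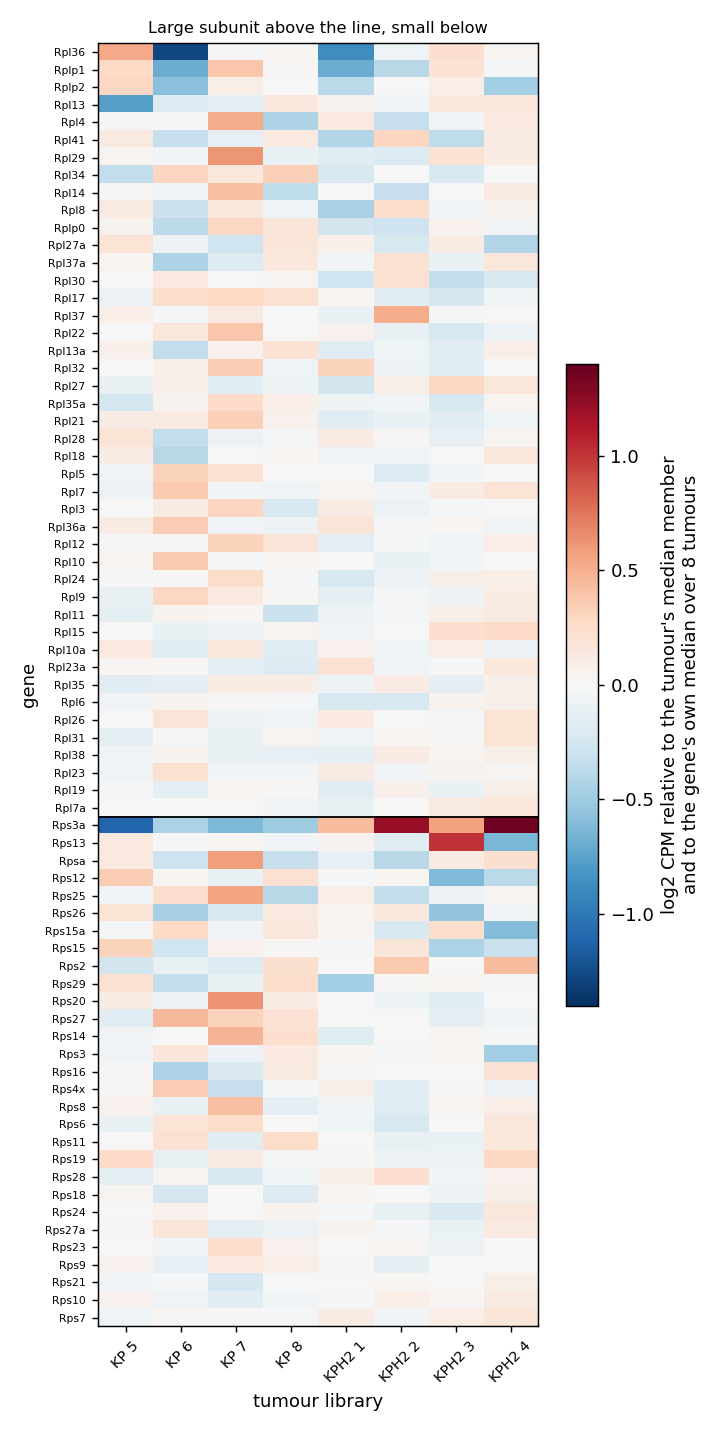
Level of 73 of the 76 tested genes in each tumour (log2 CPM) relative to that tumour's median gene of the family and to the gene's own median over 8 tumours; red is higher and blue lower, with large subunit genes above the line. Rps3a is low in the 4 KP tumours and high in the 4 KPH2 tumours; Rpl36 and Rplp1 are low in KP 6 and KPH2 1, Rplp2 is low in KP 6, KPH2 4 and KPH2 1, and Rps13 is high in KPH2 3.

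Levels of different genes, compared per kilobase of transcript, differed widely although the proteins are needed in nearly equal numbers. Mean CPM per kilobase over the 8 tumours had a median of 307 over the 76 genes tested and ran from 20.8 for Rpl13 to 939 for Rps12, a ratio of 45.2. The order at the top depended on the transcript model. With the shortest RefSeq-linked transcript of each gene in place of the longest, an alternative chosen after seeing the data, Rps27 was highest at 1127 CPM per kilobase, Rps24 rose from 304 to 945, Rps12 came after both, and the ratio was 54.3, while Rpl13 stayed lowest. Rps15a, at 53.8 CPM per kilobase, was second lowest, but its transcript model is 5179 bases long, which lowers its value. Rpl13, of the large subunit, was at 9.26, 11.9, 11.7 and 19.1 CPM in KP 5 to 8, 26.1 in KPH2 1 and 19.3, 16.1 and 16.1 in KPH2 2 to 4. Rpl13 was thus lower in every tumour than Rpl27 or Rpl15, named above, and 78.9% of the 100-base windows of Rpl13 occur in other genes. Rpl39 had 2, 0, 0 and 0 counts in KP 5 to 8 and 1, 1, 1 and 0 in KPH2 1 to 4 and was the 1 member not tested. A count of 0 allows up to 3 counts, which is at most 0.444 CPM in any of these libraries, for counting error only. This bound does not cover reads of Rpl39 dropped because they did not align uniquely. Of its 100-base windows, 1.75% occur in other annotated genes, and unannotated copies were not searched. Whether the counts reflect the level of Rpl39 mRNA was not tested.

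Most of these genes shared sequence with other annotated genes. At least 1 window of 100 bases occurred in the transcript of another annotated gene for 72 of 77 genes, and most of the windows did for 26. The median share was 32.9% and the highest 91.6%, for Rpl10. Rpl22, Rpl32, Rps3 and Rps21 were among those with no shared window. Over all 77 genes the level per kilobase had a Spearman's rho of 0.12 with the share of shared windows, as a description across genes that share the same libraries.

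**Figure D5:**
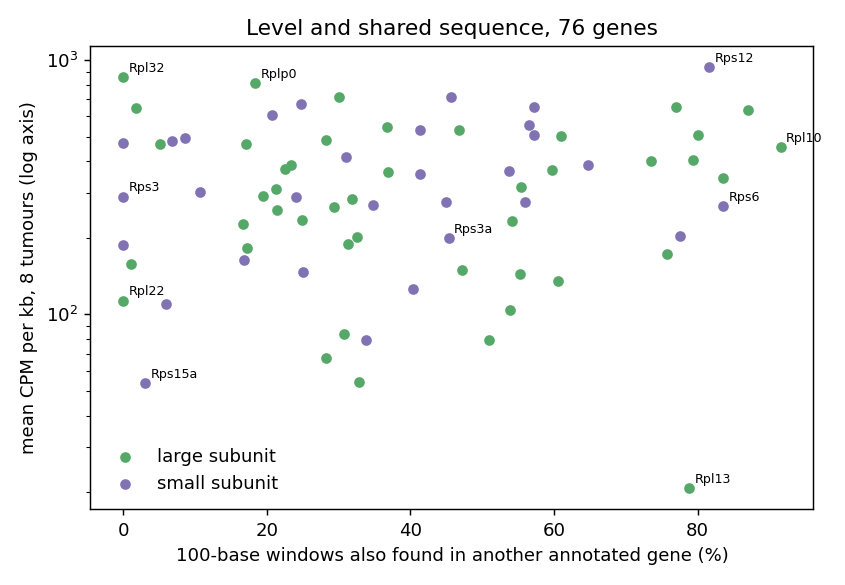
Mean CPM per kilobase over 8 tumours (log axis) against the share of 100-base windows that also occur in another annotated gene (%), 1 point per tested gene, green for large and purple for small subunit. Genes with no shared windows and genes with over 80% span much of the same range of levels; Rpl13 is lowest at 20.8.

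Of the paralogs of these genes, 4 passed the filter on low counts, each lower per kilobase than its parent, and 0 of 4 were called. Rpl7l1, Rpl22l1, Rpl36al and Rps27l were at 41.4, 61.0, 51.5 and 95.5 CPM per kilobase, beside 484, 113, 343 and 712 for Rpl7, Rpl22, Rpl36a and Rps27. Their log2 fold changes were 0.07, -0.05, 0.06 and -0.01. Rpl3l, the form of Rpl3 found in striated muscle, was below the filter, with 10, 2, 2 and 8 counts in KP 5 to 8 and 4, 13, 23 and 4 in KPH2 1 to 4. Its 2 highest tumours, KPH2 3 and KPH2 2, were also the 2 with the highest summed skeletal muscle markers. Rpl39l was at 0 to 0.30 CPM, and Rpl10l, known from the testis, had 0 counts in all 8 tumours.

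Calls in related groups were few, as over all genes, of which 1.24% were called higher and 0.72% lower. Of 75 mitochondrial ribosomal protein genes tested, 1 was called higher and 0 lower, 53 had a log2 fold change above 0 (48.0% of all genes did), and the median was 0.15. That gene, Mrpl38 of the mitochondrial large subunit, was at 17.1, 15.4, 12.9 and 18.4 CPM in KP 5 to 8, 29.4 in KPH2 1 and 37.7, 29.5 and 36.1 in KPH2 2 to 4. Its groups did not overlap, with a log2 fold change of 1.10 ± 0.18 (SE, edgeR adjusted p = 0.0272). The call was lost over all 8 tumours (log2 fold change 1.05, edgeR adjusted p = 0.1001), with the muscle covariate (adjusted p = 0.450), and without KP 6 (0.0660), KP 7 (0.0618), KPH2 2 (0.103) or KPH2 4 (0.0775), and the direction held in each. Among 16 other mRNAs with TOP tracts, 0 were called and the median was 0.08. Tpt1, a translationally controlled protein, had a log2 fold change of 0.45 and Nap1l1, a histone chaperone, of -0.38 (adjusted p = 0.380 and 0.427). Of 6 regulators of TOP mRNAs, 0 were called, with a median of -0.07. They include Rps6kb1 at -0.31 and Rps6kb2 at 0.25, the S6 kinases (adjusted p = 0.352 and 0.602). Of 8 chaperones of ribosomal proteins, 0 were called, with a median of 0.15, and Grwd1, which escorts Rpl3, had a log2 fold change of 0.42 (adjusted p = 0.227). All KPH2 tumours were above all KP tumours for 3 of these 8 over 7 tumours, Grwd1 among them, and for 2 of 8 over all 8 tumours, beside 8.73% and 3.76% of all genes.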

How the data were processed

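Total RNA from formalin-fixed, paraffin-embedded tumour sections was depleted of ribosomal RNA (Ribo-Zero Gold) and made into stranded TruSeq libraries, read as single 100-base reads. The authors used CASAVA 1.8.2, aligned reads to GRCm38 with STAR 2.4 and deposited raw counts per gene of unique alignments from HTSeq 0.6.1. They also deposited regularized log2 (rlog) values from DESeq2 1.6, in one table for 7 libraries, used here only for an alternative fit, and in one for all 8, not used here.

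Counts were analysed with edgeR 4.0.16 in R 4.3.3 (TMM, filterByExpr with a minimum count of 10 and a minimum total of 15, robust quasi-likelihood test, Benjamini-Hochberg adjustment over all genes tested, threshold 0.05). CPM used TMM sizes over 8 libraries, with log2 CPM at a prior count of 2. limma 3.58.1 and DESeq2 1.42.0 served alternatives. The scripts were tested on simulated data. P-values measure the spread between these tumours, and libraries differed beyond sampling noise (chi-square over genes divided by its degrees of freedom was 28.3 for the closest pair, KP 6 and KP 8). Depth ran from 6463221 to 13155510 counts.

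Lengths and shared windows came from GENCODE M21 transcripts linked to RefSeq, taking the longest per gene. All 77 members matched. Starts came from RefSeq (GRCm38). No genome sequence was used, so unannotated copies were not searched.

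Members and lists were chosen with earlier results of these data known. Genes named by rule were Rplp0 to Rplp2, Rps6, Rpsa, Rpl5, Rpl11, the 5 smallest p in each direction, the 2 highest and 2 lowest per kilobase, untested members, parents of paralogs with their paralogs, the smallest p in each direction of the other lists, and Epas1. Others are named as chosen after their values were seen: Rpl36, Rps13, Rn45s, Lars2, Myc and the genes near Rps3a. Some genes and an allele are not reported here. Alternatives covered scaling, filters, tools, libraries and a muscle covariate.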

Additional observations from a re-analysis of the deposited data

Results flagged for a closer look

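Of 88 groups of 4 tumours tested for a value far from the others, 2 held one, and chance alone gives about 1 in 20. Nap1l1 was at 183 CPM in KP 7, against 248 to 259 in the other KP tumours (182.5 before rounding). Epas1 was at 59.1 CPM in KP 5, against 83.0 to 86.7 in the other KP tumours.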

How the results depend on the processing

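No paired analysis was possible because each library came from a different mouse and no label links a KP tumour to a KPH2 tumour. The number of ribosomal protein genes called was 1 under the other scalings, filters and tools, and in DESeq2 over all 8 tumours, an alternative chosen after seeing the data. It was 0 with all 8 tumours in edgeR, 0 with the muscle covariate, and 0 to 1 with 1 tumour left out. The share of counts, KPH2 minus KP, was -0.018 percentage points and moved to 0.243 with KPH2 1; it was 0.134 without Rn45s and Lars2 in the total, a smaller shift than the spread between tumours. DESeq2 called 1175 of 16315 genes where edgeR called 292 of 14867. Log2 fold changes of uncalled genes changed sign in several settings, given here for the genes named by rule and for Rps13, Rpl36, Fau and Myc, and the cause was not tested. Over all 8 tumours in edgeR, with DESeq2 in parentheses where it differed, these were Rplp0 0.095 (0.096), Rpl5 0.14, Rpl17 0.071 (0.072), Rpl22 0.12, Rpl21 0.040 (0.041), Rpl32 0.30, Rps15a 0.12, Rpl10 0.17, Rps27 0.070, Rpl22l1 0.31, Rps27l 0.095 (0.096), Myc 0.72. With the muscle covariate they were Rplp2 -0.81, Rpl3 -0.0082, Rpl36a -0.21, Rpl36al -0.44, Rps27l 0.039, and, among the genes singled out after their values were seen, Rps13 -1.05, Rpl36 -0.48, Fau -0.19 and Myc 0.091. With rlog values and limma, Rplp1 was 0.031 and Rps27l 0.0067. Rps6 was -0.00090 at a mean count of at least 50 and -0.0037 without Rn45s and Lars2, the latter chosen after seeing the data. With 1 tumour left out in turn, signs changed within the ranges Rps6 -0.050 to 0.075, Rplp1 -0.22 to 0.12, Rplp2 -0.20 to 0.26, Rpsa -0.083 to 0.17, Rpl10 -0.18 to 0.038, Rpl22l1 -0.55 to 0.16, Rps27l -0.090 to 0.070, Rpl36a -0.15 to 0.11, Rpl7l1 -0.044 to 0.13, Rpl36al -0.16 to 0.21, Rplp0 -0.19 to 0.078, Rpl3 -0.088 to 0.13, Rpl32 -0.19 to 0.087, Rps15a -0.26 to 0.10, Rps13 -0.16 to 0.63, Rpl36 -0.062 to 0.52, Fau -0.00094 to 0.31, Myc -0.36 to 0.048. A biological coefficient of variation of 0.313 limits what small differences the 7 tumours can show, and the reads lost to near-identical copies are not known.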

Other observations

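A pair of genes near Rps3a were also called higher in KPH2 2 to 4, and both were chosen after their values were seen. Distances here run between the lower chromosome coordinates of the genes. Among 15 other genes tested within 1500 kb of Rps3a on chromosome 3, 2 were called, where 1.96% of all genes were. Because the window was set around a gene picked for its call, this comparison cannot show a local excess. Fam160a1, 478 kb away, was at 6.74, 10.6, 10.5 and 13.6 CPM in KP 5 to 8, 3.11 in KPH2 1 and 47.3, 48.4 and 50.7 in KPH2 2 to 4 (log2 fold change 2.23 ± 0.23, SE, edgeR adjusted p = 0.00917). Glt28d2, 268 kb away, was at 2.22, 2.54, 2.66 and 4.60 CPM in KP 5 to 8, 1.52 in KPH2 1 and 12.0, 8.89 and 13.5 in KPH2 2 to 4 (log2 fold change 1.92 ± 0.32, SE, edgeR adjusted p = 0.0289). Both calls were lost over all 8 tumours (log2 fold changes 1.85 and 1.56, edgeR adjusted p = 0.276 and 0.277) and with the muscle covariate, where the log2 fold changes were 2.30 and 2.04 (adjusted p = 0.185 and 0.396). That of Glt28d2 was also lost without KP 6 (0.0695), KP 7 (0.0755), KPH2 2 (0.0974) or KPH2 4 (0.0778), and that of Fam160a1 held with each tumour left out in turn. KPH2 1 was below every KP tumour for both, whereas Rps3a was at 299.8 CPM there, above every KP tumour.

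The processed copies of Rps15a were almost absent from 1 tumour. The 6 copies in the table took 13.6% to 15.8% of the counts of Rps15a and its copies in 7 tumours. In KPH2 3 they took 1.31% (38 counts beside 2858 of Rps15a, exact 95% interval 0.930% to 1.797%, for counting error). Rps15a-ps8 had 2 counts in KPH2 3 and 69 to 260 in the other tumours, while Rps15a itself, at 285 CPM, lay within the range of the others.

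Myc, chosen after its values were seen, was at 67.4, 64.4, 88.2 and 51.1 CPM in KP 5 to 8, 256 in KPH2 1 and 83.6, 49.4 and 56.4 in KPH2 2 to 4. It was highest in KPH2 1, the library that the study set aside, and any relation to the ribosomal protein share of that tumour was not tested.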
